A study of Mus musculus with 5 samples.

Results

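The genes whose promoters carried a peak of RNF12WT were compared with those that carried a peak of RNF12H569A,C572A, a form of the E3 ubiquitin ligase RNF12 that lacks catalytic activity and in which the RING domain is probably misfolded. A protein-coding gene was taken as a target of a list of peaks if the summit of a peak lay within 1 kb of any of its transcription start sites (TSSs) in GENCODE release M21. Of the 21755 protein-coding genes on chromosomes 1 to 19 and X, 15770 were targets of at least 1 of the lists. The lists come from chromatin immunoprecipitation and sequencing (ChIP-seq) through the V5 tag in undifferentiated female mouse embryonic stem cells (mESCs) of the 129/Sv-Cast/Ei background, with 1 library per list. Both lines were Rlim+/- and therefore kept 1 intact copy of the gene for RNF12. One carried FLAG-V5-RNF12 WT and the other FLAG-V5-RNF12(H569A,C572A), in both cases from a stably integrated vector with the CAG promoter, a strong promoter active in most cells, so the tagged protein was not under the control of its own gene. The cells of both lines and of the control, WT mESCs without the tag, were treated with 15 μM MG132, an inhibitor of the proteasome, for 3 h and cross-linked with 2 mM disuccinimidyl glutarate and 1% formaldehyde. A further list, for REX1, was used to describe the targets; its label names WT mESCs with FLAG-V5-REX1, while the study's text refers to earlier work for REX1 occupancy, and how these go together is not settled here. The mutation itself cannot be read from lists of peaks, and whether the lines are clones or pools is not given in the sources used here.

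RNF12, encoded by the X-linked gene Rlim, attaches ubiquitin to transcriptional regulators and marks them for the proteasome. Its best known substrate is REX1, encoded by Zfp42, a zinc finger protein of naive mESCs, and loss of REX1 permits expression of Xist and inactivation of an X chromosome in female cells. A promoter is the stretch of DNA around a TSS at which the transcription machinery assembles, and many mammalian promoters lie in CpG islands, which are rich in the dinucleotide CG and are open in most cell types.

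No test between the lines was made, since each list rests on 1 library without a replicate. Intervals are 95% Wilson intervals on counts of genes. They cover counting error only and treat genes as independent, which neighbouring genes that share a peak are not. The files give peaks and no numbers of reads, and the depth behind each list is unknown. Peak strength is the authors' fold enrichment over control, and it is given as a percentile among all peaks of the same list on these chromosomes, with 100 the strongest, because fold enrichments are not comparable between the lists.

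The RNF12WT list held 97272 peaks on these chromosomes and the RNF12H569A,C572A list 96846, and 33368 and 25474 of them, respectively, lay at a promoter. RNF12WT had 14992 target genes, 68.9% of all protein-coding genes, and RNF12H569A,C572A had 14738, or 67.7%. Of these, 13960 genes (64.2% of all) were targets of both lists, 1032 (4.74%) of RNF12WT alone, 778 (3.58%) of RNF12H569A,C572A alone, and 5985 (27.5%) of neither. The shared genes made up 93.1% (92.7% to 93.5%) of the RNF12WT targets and 94.7% (94.3% to 95.1%) of the RNF12H569A,C572A targets. These shares are to be read against the 67.7% and 68.9% of all genes that were targets of the other list.

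Gene by gene, the lists shared more than peak by peak. Of the promoter peaks, 75.4% of those of RNF12WT (74.9% to 75.8%) and 76.9% of those of RNF12H569A,C572A (76.3% to 77.4%) overlapped a peak of the other list by at least 1 bp. Of the peaks elsewhere, 39.4% (39.0% to 39.8%) and 30.7% (30.4% to 31.1%) did. At 13607 of the 13960 shared genes (97.5%), a promoter peak of RNF12WT overlapped a peak of RNF12H569A,C572A, so that few shared genes were shared through separate peaks.

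The size of the classes depended on the limit set on the peaks. When only peaks with a −log10 q of at least 5 were kept, 649 genes were targets of RNF12WT alone and 2648 of RNF12H569A,C572A alone, which turned the order of these classes, and 81.4% of the RNF12H569A,C572A targets were shared. When each list was cut to its 20000 peaks with the highest −log10 q, 8791 genes were targets of RNF12WT and 6356 of RNF12H569A,C572A, and 4623 were shared, 52.6% of the RNF12WT targets and 72.7% of the RNF12H569A,C572A targets. The median −log10 q of the strongest promoter peak at shared genes was 7.81 for RNF12WT and 21.003 for RNF12H569A,C572A.

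The sequences below show, in the reference genome GRCm38 (the build named mm10), what lay under summits at genes that the results turn on. Each is given 5′ to 3′ on the strand of its gene, with CG dinucleotides in capitals. Rlim and Zfp42 encode the ligase and its substrate, Ppp1r8 and Hist1h4b are among the strongest shared targets, Egf and Tex13c1 are strong targets of RNF12WT alone, and Enpp2 and Rgs17 are strong targets of RNF12H569A,C572A alone. The summit with 50 bases on either side is printed where these hold no annotated UTR, and otherwise 30 bases around it.
Rlim, RNF12WT summit, chrX:103981363-103981463, - strand: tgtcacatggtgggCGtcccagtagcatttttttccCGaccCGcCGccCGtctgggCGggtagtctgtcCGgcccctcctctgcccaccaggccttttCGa
Zfp42, RNF12H569A,C572A summit, chr8:43307053-43307153, - strand: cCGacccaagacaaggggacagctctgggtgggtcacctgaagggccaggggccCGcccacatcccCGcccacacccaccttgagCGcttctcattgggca
Ppp1r8, RNF12WT summit, chr4:132843171-132843271, - strand: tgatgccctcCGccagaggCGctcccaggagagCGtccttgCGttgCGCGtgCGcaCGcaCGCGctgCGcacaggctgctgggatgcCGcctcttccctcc
Hist1h4b, RNF12H569A,C572A summit, chr13:23757192-23757292, + strand: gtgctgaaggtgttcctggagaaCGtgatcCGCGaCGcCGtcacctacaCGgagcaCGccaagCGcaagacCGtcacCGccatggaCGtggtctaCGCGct
Egf, RNF12WT summit, chr3:129725107-129725136, - strand: CGagacCGgaagtactgCGaaggtaatgtg
Tex13c1, RNF12WT summit, chrX:43591350-43591450, + strand: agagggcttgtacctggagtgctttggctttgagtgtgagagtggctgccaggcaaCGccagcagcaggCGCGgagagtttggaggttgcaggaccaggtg
Enpp2, RNF12H569A,C572A summit, chr15:54914778-54914878, - strand: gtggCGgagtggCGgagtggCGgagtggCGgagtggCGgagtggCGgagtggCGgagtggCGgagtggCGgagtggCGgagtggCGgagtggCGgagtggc
Rgs17, RNF12H569A,C572A summit, chr10:5922426-5922526, - strand: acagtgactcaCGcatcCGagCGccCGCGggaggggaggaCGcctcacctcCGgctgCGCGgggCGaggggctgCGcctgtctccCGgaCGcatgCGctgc
The windows at Ppp1r8 and Rgs17 hold 12 and 14 CG dinucleotides and that at Tex13c1 holds 3. The window at Zfhx4, another strong target of RNF12WT alone that is not printed, has the same length and holds 10. The window at Enpp2 is a tandem repeat of a short unit with a CG in each copy, and the window at Hist1h4b is coding sequence that returns in other histone H4 genes.

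Genes of the RNF12 axis, a set of 14 that comprises Rlim, its relatives, known substrates and partners of its protein, were found in every class. Of them, 11 were shared (78.6%, 52.4% to 92.4%), an interval that holds the 64.2% of all genes. Of the others, Yy2 was a target of RNF12WT alone, Zfp42 of RNF12H569A,C572A alone and Ldb2 of neither. At Rlim (X:103957163-103981284, minus strand), the strongest RNF12WT summit lay 129 bp upstream of a TSS, at percentile 53.9 of its list, and the strongest RNF12H569A,C572A summit 156 bp downstream of a TSS, at percentile 80.2. The ligase thus had peaks at the promoter of its own gene in both lines, with the mutant peak at the higher rank.

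At Zfp42 (8:43295063-43306980, minus strand), RNF12H569A,C572A had a peak 123 bp upstream of a TSS, with a −log10 q of 15.2 and a percentile of 73.6. The nearest RNF12WT summit was 1116 bp from a TSS, just outside the window, so that the gene counts as shared at a window of 3 kb. REX1 itself had a summit 7 bp upstream of a TSS of Zfp42, at percentile 85.0 of its list. At Yy2 (X:157566119-157568985, minus strand), which encodes a zinc finger factor of the same family as REX1, RNF12WT had a peak 15 bp upstream of a TSS at percentile 52.0, and the nearest RNF12H569A,C572A summit was 5528 bp away. Yy1, the ubiquitously expressed member of that family, was shared, at percentile 28.8 in the RNF12WT list and 92.6 in the RNF12H569A,C572A list. Yy1 lies on chromosome 12, where RNF12WT peaks at shared genes had a lower median percentile than elsewhere (given further on).

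Partners of RNF12 in other pathways were spread over the ranks. Rnf6, which encodes the closest RING relative of RNF12, was at percentile 98.5 for RNF12WT and 90.6 for RNF12H569A,C572A. Ldb1, the cofactor of LIM homeodomain proteins that RNF12 ubiquitylates, was at 97.4 and 91.9. Stub1, another E3 ligase and a partner of chaperones, was at 96.6 and 90.7. These 3 genes ranked above percentile 90 of both lists, and Smad7, an inhibitor of TGF-β signalling, did so as well, at 93.3 and 95.1. Smurf2, an E3 ligase that acts on TGF-β receptors, was at 13.9 and 86.2, and was thus among the weak targets of one list and the strong targets of the other. Terf1, which encodes a telomere-binding substrate of RNF12, went the other way by a smaller margin, at 74.3 and 64.3.

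Genes of naive pluripotency, the ground state of undifferentiated mESCs, were likewise found in every class. Of 25, 18 were shared (72.0%, 52.4% to 85.7%), and here too the interval holds the 64.2% of all genes. Of the others, Dppa5a was a target of RNF12WT alone, Zfp42 and Dppa4 of RNF12H569A,C572A alone, and Nanog, Dppa2, Dppa3 and Tcl1 of neither. At Nanog, a core factor of the pluripotency network, the nearest summits lay 1335 bp (RNF12WT) and 1024 bp (RNF12H569A,C572A) from a TSS, while REX1 had a summit 51 bp upstream. Pou5f1, which encodes OCT4, ranked at percentile 83.7 in the RNF12WT list and 39.3 in the RNF12H569A,C572A list. Klf4, another factor of the network, ranked at 66.5 and 98.3. Sox2 (82.8 and 90.0006) and Zfp281 (97.0 and 99.2) ranked high in both lists. All 20 genes of primed pluripotency and early lineages examined were targets of both lists, with median percentiles of 73.3 (RNF12WT) and 77.0 (RNF12H569A,C572A), below the 82.1 and 80.7 of all shared genes. RNF12H569A,C572A ranked higher at 11 of them, against 44.5% of all shared genes, such as Pou3f2 (19.8 and 78.5), Eomes (49.96 and 81.6) and Fgf8 (53.3 and 82.1), and RNF12WT at 9, such as Otx2 (95.03 and 71.9), Fgf5 (93.9 and 63.2) and T (93.1 and 77.0).

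Most of the 23 sets of genes described were nearly all targets of both lists, against 64.2% of all genes, both sets that serve every cell and sets of developmental regulators. All 30 genes for Polycomb subunits and all 11 for DNA methylation enzymes were shared, as were 47 of 49 proteasome subunits, 58 of 60 splicing factors, 35 of 36 aminoacyl tRNA synthetases and 73 of 80 cytosolic ribosomal proteins. Of 39 Hox genes, which set positions along the body axis, 37 were shared (94.9%), and of 102 developmental transcription factors 88 (86.3%). The zinc finger Zfp set was shared less widely. Of its 391 genes, 299 (76.5%) were shared, 23 were targets of RNF12WT alone, 24 of RNF12H569A,C572A alone and 45 of neither. Genes of 1 list alone went both ways. Among ribosomal proteins, Rpl39, Rpl36a and Rps9 were targets of RNF12WT alone and Rpl32 and Rps26 of RNF12H569A,C572A alone. Among respiratory chain subunits, 75 of 83 were shared, Cox6a2, Cox7a1, Cox7b and Cox6b1 were targets of RNF12WT alone, and Cox8b and Cox8c of RNF12H569A,C572A alone. Cox6a2, Cox7a1 and Cox8b encode isoforms of cytochrome c oxidase subunits of heart and skeletal muscle, and Cox8c a testis isoform.

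Chemosensory receptors and keratins stood at the other end. Of 1093 olfactory receptor genes, 8 were shared, 20 were targets of RNF12WT alone, 17 of RNF12H569A,C572A alone and 1048 of neither. Of 327 vomeronasal receptor genes, 1 was shared and 5 were targets of RNF12H569A,C572A alone. Keratins, the intermediate filament proteins of epithelia and hair, fell between these extremes, with 20 of 53 shared, 9 targets of RNF12WT alone and 8 of RNF12H569A,C572A alone, against 4.74% and 3.58% of all genes in these classes. At keratin genes the strongest summit lay downstream of the TSS in 25 of 29 RNF12WT targets and 24 of 28 RNF12H569A,C572A targets, against 56.1% and 57.2% of all targets. Krt23, for instance, had an RNF12WT peak 249 bp downstream of a TSS at percentile 83.8 and no RNF12H569A,C572A summit within 40688 bp, and Krt5 had an RNF12H569A,C572A peak 156 bp downstream at percentile 30.8 with the nearest RNF12WT summit at 21463 bp. At olfactory receptor genes the strongest summit was also mostly downstream for RNF12WT (24 of 28 targets), but not for RNF12H569A,C572A (12 of 25).

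**Figure D1:**
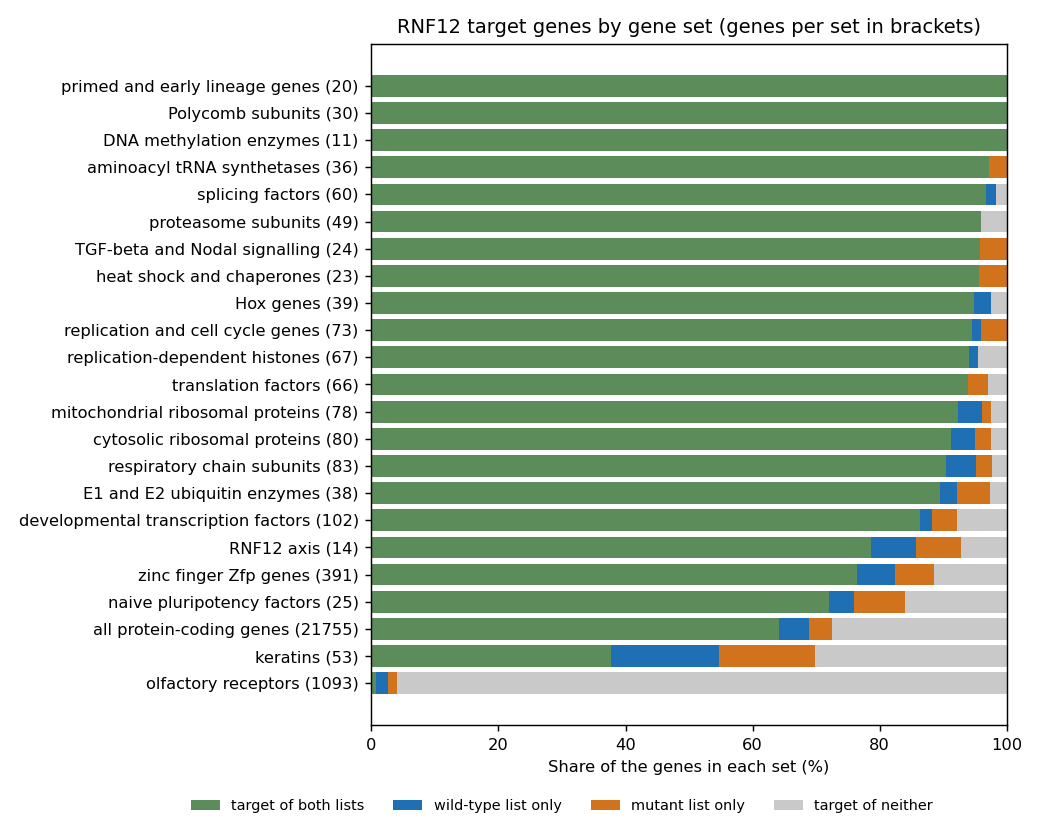
Share of the genes of each set, in %, that were targets of both lists, of the RNF12WT list alone, of the RNF12H569A,C572A list alone or of neither; each bar adds up to 100% and the number of genes is in brackets (vomeronasal receptors are not drawn). Sets that serve every cell, Hox genes and primed lineage genes are almost wholly shared, keratins have the largest shares in 1 list alone among the sets drawn, and 1048 of 1093 olfactory receptor genes are targets of neither.

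Targets in 1 list alone had weaker peaks than shared targets, in the middle of the ranks of their list. The median percentile of the strongest promoter peak was 82.1 (RNF12WT) and 80.7 (RNF12H569A,C572A) at shared genes, against 52.6 at genes of RNF12WT alone and 47.7 at genes of RNF12H569A,C572A alone. Of the RNF12WT targets whose strongest peak was at or below percentile 10 of the list, 281 of 346 (81.2%, 76.8% to 85.0%) were shared, and of those above percentile 90, 5020 of 5101 (98.4%, 98.0% to 98.7%). For RNF12H569A,C572A the share went from 149 of 225 (66.2%, 59.8% to 72.1%) to 3149 of 3169 (99.4%, 99.03% to 99.59%). The increase was not even, with a share of 78.5% (74.97% to 81.73%) between percentiles 30 and 40 of RNF12WT. A gene of 1 list alone mostly had a single promoter peak, in 77.3% of genes of RNF12WT alone and 79.0% of genes of RNF12H569A,C572A alone, against 29.1% (RNF12WT peaks) and 46.7% (RNF12H569A,C572A peaks) of shared genes. The shared genes also had more annotated TSSs, 5.30 on average against 3.27 for RNF12WT alone, 3.18 for RNF12H569A,C572A alone and 2.24 for neither, so that more of the genome counted as their promoters.

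**Figure D2:**
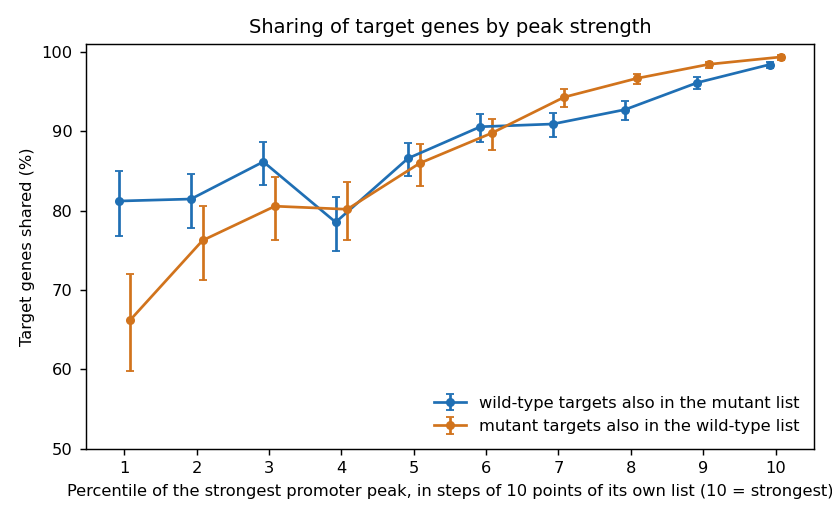
Percentage of the target genes of each list that were also targets of the other list, by the step of 10 percentile points in which the strongest promoter peak lies (vertical axis from 50%; bars are 95% Wilson intervals). The share is 81.2% and 66.2% in the weakest step of RNF12WT and RNF12H569A,C572A and 98.4% and 99.4% in the strongest.

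At most genes of 1 list alone, the other list had no summit just outside the promoter window. At 294 of the 1032 genes of RNF12WT alone (28.5%, 25.8% to 31.3%), an RNF12H569A,C572A summit lay between 1 and 3 kb from a TSS, and at 408 (39.5%, 36.6% to 42.6%) none lay within 10 kb. At 174 of the 778 genes of RNF12H569A,C572A alone (22.4%, 19.6% to 25.4%), an RNF12WT summit lay between 1 and 3 kb, and at 369 (47.4%, 43.9% to 50.9%) none within 10 kb. At the edge of the window, the nearest RNF12WT summit lay in the last 100 bp inside it at 76 genes and in the first 100 bp beyond it at 72, and for RNF12H569A,C572A the numbers were 80 and 73.

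The strongest targets of RNF12WT alone, outside chromosomes 10 and 12, were Zfp93, Egf, Scg2, Tex13c1 and Zfhx4. At Zfp93 (7:24270420-24277794), a KRAB zinc finger gene, the RNF12WT summit lay 82 bp downstream of a TSS at percentile 99.8 and the nearest RNF12H569A,C572A summit 17655 bp away. At Egf (3:129677565-129755316), which encodes epidermal growth factor, the RNF12WT summit lay 35 bp upstream of an alternative TSS inside the gene, at 99.7, and an RNF12H569A,C572A summit was 1062 bp from a TSS, just outside the window. Zfhx4, a homeobox gene of the developing nervous system and muscle, was similar, at percentile 99.01 with an RNF12H569A,C572A summit at 1117 bp. Scg2, which encodes the neuroendocrine granule protein secretogranin II, and Tex13c1 had none within 48416 and 69395 bp, respectively, and no REX1 peak at their promoters.

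The strongest targets of RNF12H569A,C572A alone, outside chromosomes 10 and 12, were Enpp2, Gbp8, Reg2, Lancl1 and Isoc1. Enpp2 (15:54838901-54952892) encodes autotaxin, an enzyme that makes lysophosphatidic acid, and its peak, at an alternative TSS inside the gene, stood at percentile 99.2 with an RNF12WT summit 1264 bp from a TSS. The 32 bases at this summit, which lie in the tandem repeat printed above, occur 18 times on chromosomes 1 to 19, X and Y. Gbp8, a guanylate-binding protein gene, and Reg2, a gene of pancreatic secretory proteins, had peaks at 98.9 and 98.6, and the 32 bases at their summits occur 2351 and 312 times. Lancl1, which encodes a glutathione-binding protein, and Isoc1 had summits with bases found at no other place, at percentiles 94.3 and 94.1, and the nearest RNF12WT summits were 2124 and 159452 bp away.

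Repeated sequence was frequent among the genes of RNF12H569A,C572A alone. At 255 of 778 of them (32.8%, 29.6% to 36.2%), the 32 bases at the strongest summit occurred more than 1 time in the genome, against 4.90% (4.55% to 5.27%) of shared genes at the RNF12H569A,C572A summits, 3.42% (3.14% to 3.74%) of shared genes at the RNF12WT summits and 6.49% (5.14% to 8.16%) of genes of RNF12WT alone. How many reads under these peaks map to more than 1 place was not measured, and their position is to be taken with caution. Of the 255 genes, 35.7% carry a provisional Gm name, against 3.06% of the 523 others of this class.

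CpG content differed between the classes. It was measured at the gene start, which is not always the TSS nearest to the summit. The ratio of observed to expected CG dinucleotides within 500 bp of the gene start had a median of 0.715 at shared genes, 0.278 at genes of RNF12WT alone, 0.405 at genes of RNF12H569A,C572A alone and 0.155 at genes of neither list, against 0.558 over all genes. A ratio of at least 0.6, the usual mark of a CpG island, was reached by 69.8% (69.0% to 70.6%) of shared genes, by 5.91% (4.63% to 7.52%) of genes of RNF12WT alone, by 27.9% (24.9% to 31.1%) of genes of RNF12H569A,C572A alone and by 0.902% (0.692% to 1.18%) of genes of neither, against 46.3% of all genes. The value for RNF12H569A,C572A alone joins unlike parts, split as for REX1 further on: 53.3% (46.1% to 60.4%) of the 182 genes on chromosomes 10 and 12, 10.7% (7.31% to 15.4%) of the 224 elsewhere with a repeated summit sequence, and 25.8% (21.6% to 30.5%) of the 372 others. The order of the classes was the same among genes with strong peaks. Among genes with the strongest peak above percentile 75 of the RNF12WT list, 73.6% of 8386 shared genes and 9.49% of 253 genes of RNF12WT alone reached this ratio. Above percentile 75 of the RNF12H569A,C572A list, 81.1% of 8845 shared genes and 58.5% of 123 genes of RNF12H569A,C572A alone did.

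**Figure D3:**
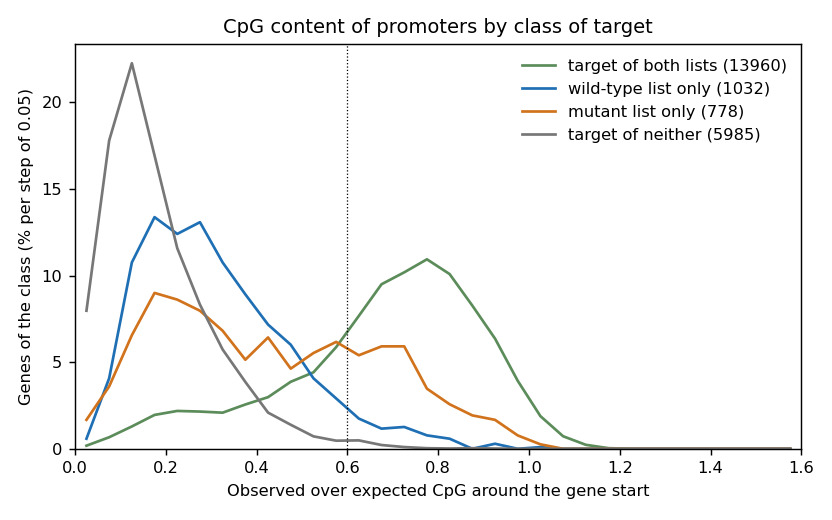
Distribution of the observed over expected CpG ratio within 500 bp of the gene start, as % of the genes of each class per step of 0.05, for shared targets, targets of 1 list alone and genes that were targets of neither; the dotted line marks 0.6. Shared targets centre at a median of 0.715 and RNF12WT-only targets at 0.278, while RNF12H569A,C572A-only targets are spread widely, with a median of 0.405 and quartiles of 0.224 and 0.623.

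Letters of some known promoter elements were also more frequent at shared genes. In the 250 bases before and 50 after the gene start, searched on both strands, the GC box GGGCGG, bound by SP and KLF factors, occurred at 60.8% of shared genes, 23.6% of genes of RNF12WT alone and 34.6% of genes of RNF12H569A,C572A alone, against 43.4% of all genes. The ETS core CCGGAAG occurred at 15.3%, 4.26% and 8.23%, against 10.9% of all. The core AAGATGGC, bound by YY1 and REX1, occurred at 3.91%, 1.74% and 1.54%, against 2.93% of all. The TATA box TATAAA, an element of many tissue-specific promoters, was less frequent at shared genes, at 7.43%, 14.2% and 14.5%, against 12.7% of all and 24.3% of genes that were targets of neither. CCAAT differed little, at 37.5%, 37.3% and 39.2%, against 38.9% of all. The GC box and the ETS core each hold a CG. No motif searched contains another of these as a whole.

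REX1 shared most of these promoters. Of the shared genes, 94.6% (94.2% to 94.9%) were also REX1 targets, against 67.5% of all genes. Of the genes of RNF12WT alone, 50.4% (47.3% to 53.4%) were, of those of RNF12H569A,C572A alone 55.5% (52.0% to 59.0%), and of genes of neither list 8.72% (8.03% to 9.46%). Outside chromosomes 10 and 12, the numbers were 499 of 998 genes of RNF12WT alone (46.9% to 53.1%) and 290 of 596 genes of RNF12H569A,C572A alone, or 48.7% (44.7% to 52.7%), with overlapping intervals. Within the RNF12H569A,C572A-only class, split in a way chosen after the values were seen, the share was 78.0% (71.5% to 83.4%) for the 182 genes on chromosomes 10 and 12, 21.4% (16.6% to 27.3%) for the 224 genes elsewhere with a repeated summit sequence, and 65.1% (60.1% to 69.7%) for the 372 others. For the 933 genes of RNF12WT alone chosen in the same way as the last group, it was 51.4% (48.2% to 54.6%). Of all genes, 74.6% on chromosomes 10 and 12 and 66.9% on the other chromosomes were REX1 targets. The order of the whole classes turned with a window of 3 kb, at which 51.7% (48.6% to 54.7%) of genes of RNF12WT alone and 45.0% (41.9% to 48.2%) of genes of RNF12H569A,C572A alone were REX1 targets. The REX1 list did not enter the definition of the classes.

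At shared genes, the lists often pointed to the same place but not to the same rank. The strongest summits of the 2 lists lay a median of 157 bp apart, within 100 bp of each other at 40.6% of genes and within 500 bp at 77.8%. The summits of RNF12H569A,C572A lay closer to TSSs, within 150 bp at 64.4% of shared genes against 54.4% for RNF12WT. The Spearman correlation of the percentiles over the 13960 shared genes was 0.349, a description over genes of 1 pair of libraries that share a genome and promoter sequence. The percentiles differed by 10 points or less at 5506 genes (39.4%), RNF12H569A,C572A ranked more than 50 points higher at 700 genes, and RNF12WT at 424. Over all shared genes the order was the other way. RNF12H569A,C572A ranked higher at 44.5% of them, and the median difference, RNF12H569A,C572A minus RNF12WT, was −2.19 points. Of the 500 strongest target genes of each list, 93 (18.6%) were in both groups, although 497 of the 500 of either list were targets of the other list at some rank. Of the 5000 strongest, 2520 (50.4%) were in both groups. These overlaps are to be read against the 14992 RNF12WT and 14738 RNF12H569A,C572A target genes from which the groups were taken.

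Ppp1r8 and Pcbp1 were strong in both lists. Ppp1r8 (4:132826929-132843169), which encodes a nuclear inhibitor of protein phosphatase 1, was at percentile 99.98 of RNF12WT and 99.8 of RNF12H569A,C572A, with summits 52 and 30 bp upstream of a TSS. Pcbp1 (6:86524492-86526321), which encodes an RNA-binding protein, was at 99.7 and 99.8, with summits 286 and 297 bp upstream. The largest differences with RNF12WT higher, outside chromosomes 10 and 12, were at Zfp235, a KRAB zinc finger gene (98.3 and 0.972), Plekhb2 (97.4 and 0.972) and Hus1b, a paralogue of a DNA damage checkpoint gene (98.0 and 4.29). The largest with RNF12H569A,C572A higher were at the histone gene Hist1h2ab (0.709 and 96.6), the zinc finger gene Gm14308 (1.05 and 95.003) and Caap1, which encodes a regulator of apoptosis (3.98 and 96.2). Summit bases of Hist1h2ab and Gm14308 occur 14 times each at the RNF12H569A,C572A summit, and those of Caap1, Zfp235, Plekhb2 and Hus1b at no other place.

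Replication-dependent histone genes, which supply core and linker histones in S phase, stood out at the top of the RNF12H569A,C572A list. Of 67 genes, 63 were shared, Hist1h1t was a target of RNF12WT alone and 3 of neither. Their median percentile was 86.8 for RNF12WT and 99.5 for RNF12H569A,C572A, against 82.1 and 80.7 at all shared genes. RNF12H569A,C572A ranked higher at 59 of the 63 genes, against 44.5% of all shared genes. In the top 1% of its list lay 40 of them, against 0.781% of all shared genes, and in the top 1% of the RNF12WT list 6, against 5.94%. Neighbouring genes can have the same strongest peak, and counted once each, 31 of the 48 RNF12H569A,C572A peaks and 6 of the 47 RNF12WT peaks were in the top 1%. By family, the medians were 70.5 and 99.3 for H2A, 66.9 and 99.8 for H2B, 95.6 and 99.9 for H3 and 98.2 and 99.3 for H4. The linker H1 genes did not share this order, with 94.5 and 81.7 over 3 shared genes. The median summit lay 195 to 268 bp downstream of the TSS for H2A, H3 and H4 in either list, and at −331 bp (RNF12WT) and −459 bp (RNF12H569A,C572A), which is upstream, for H2B, whose genes often share a promoter with an H2A gene.

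Many of these genes have near-identical copies, and peaks at single members are to be taken with caution. At 55 of the 63 genes, the 32 bases at the RNF12WT summit occurred more than 1 time in the genome, and at 60 those at the RNF12H569A,C572A summit. At the 3 genes with bases found at no other place at both summits, the medians were 99.9 and 90.5, the opposite order. No H2A, H2B or H3 gene is among these 3, since all 18, 17 and 12 shared ones had repeated bases at the RNF12H569A,C572A summit. The part that repeated sequence has in the difference was not tested.

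**Figure D4:**
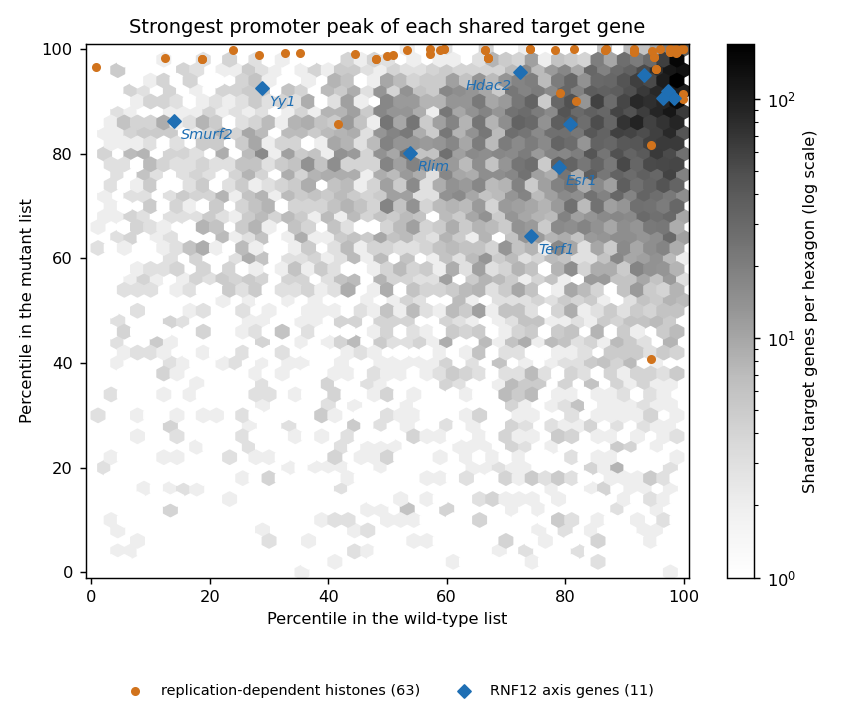
Percentile of the strongest promoter peak in the RNF12WT list (horizontal) against that in the RNF12H569A,C572A list (vertical) for the 13960 shared genes, as counts per hexagon on a log grey scale, with 63 histone genes as orange dots and 11 RNF12 axis genes as blue diamonds. Histone genes lie along the upper edge, above percentile 80 of RNF12H569A,C572A with 1 exception, at any percentile of RNF12WT, and Smurf2 and Yy1 lie at the upper left.

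Genes for chaperones, which respond to protein stress such as that from MG132, were shared at 22 of 23, against 64.2% of all genes, with Serpinh1 a target of RNF12H569A,C572A alone. Their median percentiles at shared genes were 89.8 (RNF12WT) and 88.8 (RNF12H569A,C572A), against 82.1 and 80.7 at all shared genes. High ranks were not particular to chaperone genes. Polycomb subunits had medians of 92.4 and 90.5 and E1 and E2 ubiquitin enzymes 87.0 and 88.3, while cytosolic ribosomal proteins were lower, at 74.5 and 81.5. Hspd1 and Hspe1, mitochondrial chaperonin genes that share a promoter and a peak, were at 99.98 and 88.8. Chordc1, a partner of HSP90, was at 99.9 and 92.5, and Hspa8, the constitutive HSP70, at 98.9 and 90.3. Hsp90aa1 on chromosome 12 was at 45.0 and 97.4, and Dnajb1, an HSP40 gene on chromosome 8, at 9.14 and 80.3.

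The 2 lists differed by chromosome. On chromosome 12, 67.0% of genes (63.3% to 70.6%) were RNF12WT targets and 81.2% (78.0% to 84.0%) RNF12H569A,C572A targets, with 9 genes of RNF12WT alone and 100 of RNF12H569A,C572A alone. On chromosome 10 the shares were 66.7% (63.8% to 69.5%) and 72.3% (69.5% to 74.9%), with 25 and 82 such genes. Together these chromosomes held 182 of the 778 genes of RNF12H569A,C572A alone and 34 of the 1032 of RNF12WT alone. At shared genes of chromosome 12, the median percentile was 60.8 for RNF12WT and 86.7 for RNF12H569A,C572A, and on chromosome 10 it was 70.1 and 83.1, against 84.0 and 80.5 on the other chromosomes. The REX1 list had 81.5% of the genes of chromosome 12, 70.2% of those of chromosome 10 and 66.9% of those of the other chromosomes as targets. The number of copies of these chromosomes in each line and in the control was not measured here, and its part in the difference was not tested.

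Evl, Rgs17 and Acot2 were the strongest targets of RNF12H569A,C572A alone on these chromosomes. Evl (12:108554720-108688516), which encodes a regulator of actin, had a summit 54 bp downstream of a TSS at percentile 96.1, Rgs17 (10:5825663-5922400), which encodes a regulator of G protein signalling, 76 bp upstream at 95.8, and Acot2 (12:83987861-83993873), an acyl-CoA thioesterase gene, 332 bp downstream at 94.4. All 3 summits lie in sequence found at no other place, and REX1 had a peak at each of these promoters.

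Outside chromosomes 10 and 12, 69.1% of genes were RNF12WT targets and 67.1% RNF12H569A,C572A targets, and 92.8% and 95.6% of them were shared. RNF12WT had the larger share of genes on 16 of the other 18 chromosomes. On chromosome 7 it had 130 genes of its own against 44, the widest gap of that kind among them. On the X chromosome, RNF12H569A,C572A had 5241 peaks and RNF12WT 3293 on it, while 484 and 503 of its 948 genes, respectively, were targets.

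**Figure D5:**
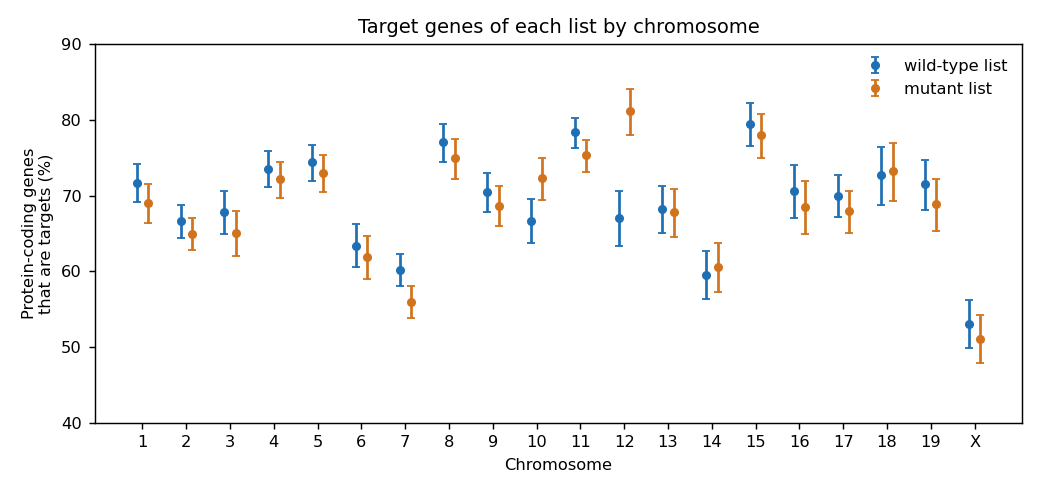
Percentage of the protein-coding genes of each chromosome that were targets of the RNF12WT list or of the RNF12H569A,C572A list (vertical axis from 40%; bars are 95% Wilson intervals). Chromosome 12 has 67.0% and 81.2%, chromosome 10 has 66.7% and 72.3%, and the lists lie close together on the others.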

How the data were processed

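ChIP-seq peak lists of RNF12WT and RNF12H569A,C572A were compared by gene, with the REX1 list for description. The authors trimmed reads with Trim Galore 0.6.7, aligned them with Bowtie2 2.5.0 to mm10 masked at strain differences, merged alleles with SAMtools 1.10 and called peaks in each library with MACS2 2.2.7.1. The deposited columns are a score (not used), the authors' fold enrichment over control (a ratio), −log10 p (not used), −log10 q and the summit. Which control library stands behind each list is not given in the sources used here, and depth is unknown. The 2 control libraries were not analysed here.

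Genes and TSSs came from GENCODE M21, sequence from GRCm38.p6. A gene was a target if a summit lay within 1 kb of any TSS. Each gene took its promoter peak with the highest fold enrichment, ranked within its list (ties averaged). The members and gene lists were chosen with earlier results of these data known. Named genes, outside chromosomes 10 and 12, are the 5 shared with the highest lower percentile, the 5 strongest of each list alone and the 3 with the largest percentile difference each way, and on chromosomes 10 and 12 the 3 strongest of RNF12H569A,C572A alone, with genes that share a summit counted once; 3 of the 5 shared ones are the histone genes Hist1h4b, Hist1h3c and Hist1h4i. Members of the RNF12 axis and naive pluripotency sets may also be named; other genes were named as examples after their values were seen. Copies of the 32 bases at a summit were counted on both strands, a measure chosen with the data known. The target step was tested on simulated data. Python 3.11.15, numpy 2.4.6, pandas 2.3.3, scipy 1.17.1 and matplotlib 3.10.9 were used. Alternatives to the limit on peaks, the window, the TSSs and the chromosomes are given in the closing section.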

Additional observations from a re-analysis of the deposited data

Results flagged for a closer look

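Peaks on the Y chromosome lay outside the comparison, and they are given here because the cells are labelled female. The RNF12WT list held 238 peaks on it and the RNF12H569A,C572A list 975. Of 183 protein-coding genes annotated on it, 1 had an RNF12WT summit within 1 kb of a TSS and 4 had an RNF12H569A,C572A summit.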

How the results depend on the processing

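The lists come from 1 library each, so the spread between replicates is unknown and depth, which is also unknown, limits what the absence of a peak means. No paired analysis was possible because each group has 1 library and no result comes from a test. Of 81 recomputed values, 55 stayed within 1.5 times the count or within the interval of the share or correlation, and 26 moved. A −log10 q of at least 5 gave 649 genes of RNF12WT alone and 2648 of RNF12H569A,C572A alone, shared percentages of 94.7% and 81.4%, REX1 targets among the single-list classes of 42.8% and 63.7%, and a rank correlation of 0.277. A −log10 q of at least 2 gave a shared percentage of RNF12H569A,C572A targets of 94.0%. The 20000 peaks with the highest −log10 q gave 8791 and 6356 targets, 4623 shared, 4168 of RNF12WT alone and 1733 of RNF12H569A,C572A alone, shared percentages of 52.6% and 72.7% and a correlation of 0.248. A window of 500 bp gave shared percentages of 92.4% and 94.0% and REX1 targets at 61.6% of the RNF12H569A,C572A-only genes, and 3 kb gave 94.0% of RNF12H569A,C572A targets shared and REX1 targets at 51.7% of the RNF12WT-only and 45.0% of the RNF12H569A,C572A-only genes, which turned their order. With 1 TSS per gene the shared percentages were 92.2% and 93.6%. Without chromosomes 10 and 12, 95.6% of RNF12H569A,C572A targets were shared and 48.7% of the RNF12H569A,C572A-only genes were REX1 targets. Ranking by −log10 q gave a correlation of 0.367. Any overlap of a peak with the window moved none of the values. Fewer peaks enter under the limits on −log10 q; the cause of the other moves was not tested.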

Other observations

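Long noncoding genes lie outside the comparison of protein-coding genes. Of 9603 such genes, 2888 were targets of RNF12WT (30.1%) and 2700 of RNF12H569A,C572A (28.1%), against 68.9% and 67.7% of protein-coding genes, and the 2271 shared ones made up 78.6% (77.1% to 80.1%) and 84.1% (82.7% to 85.4%) of them. Among the 6523 with no protein-coding TSS within 5 kb, 960 (14.7%) and 851 (13.0%) were targets, and the 546 shared ones made up 56.9% (53.7% to 60.0%) and 64.2% (60.9% to 67.3%). Xist, the noncoding RNA that silences an X chromosome, was a target of RNF12WT alone, at percentile 93.0 with a summit 9 bp downstream of a TSS, and no RNF12H569A,C572A summit lay within 1 kb of its TSSs. Its antisense partner Tsix and its activators Jpx and Ftx were targets of both lists. Tsix was at percentile 99.3 of RNF12WT and 91.3 of RNF12H569A,C572A, with summits 41 and 17 bp downstream of a TSS. Ftx was at percentile 99.3 of RNF12WT and 92.0 of RNF12H569A,C572A, with summits 30 and 34 bp downstream of a TSS, and Jpx at 98.0 and 89.2, with summits 97 and 102 bp upstream.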
